A study of Mus musculus with 2 samples.

Results

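The 461 well measured losses are stretches of the mouse genome whose signal in a DNA methylation assay of the hypothalamus was lower at postnatal day 21 (P21), the age of weaning, than on the day of birth (P0). The unit is a run, meaning 2 or more neighbouring array probes on an autosome that were joined where the gap between them was at most 500 bp. A run was chosen by its log2 ratio of P21 over P0 signal, averaged over its probes. The mean of the arrays had to show at least a 1.5-fold lower signal at P21, and the log2 ratio on each array had to be at most -0.3. Every probe also had to be well above background, by the flags of the scanner software, at both ages on both arrays. Of 18367 autosomal runs, 15076 met this brightness condition at all their probes, and 461 of these, or 3.06%, met the size rule. The mirrored rule, with the sign turned, found 1194 runs with higher signal at P21, or 7.92%, and these are called gains here. Because both arrays chose the losses, their ratios and counts are given as a description with no test, and nothing is read from the share.

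Genomic DNA came from the hypothalamus of female mice of the non-agouti genotype, given by the labels as a C57BL/6J and C3H/HeJ mixture, at both ages. DNA of P21 mice and DNA of P0 mice were hybridised together on each of 2 Agilent arrays, called A and B, with the dyes exchanged. On array A the red dye carried P0, and its ratio was turned to P21 over P0, while on array B the red dye carried P21. The design text speaks of biological replicates, but how many mice each array stands for, and whether they were pooled, is not given, so the spread between arrays may be partly technical. The arrays hold no measure of gene expression, so the tissue is taken from the labels. The design placed 90526 probes of 45 to 60 nt on genome build mm8, to which all positions below refer. The probes carry no gene name and no genome of that build was used here, so runs are named by position without gene, exon or CpG island.

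DNA methylation in mammals is mostly the addition of a methyl group to cytosines that precede a guanine. It is copied when cells divide by the maintenance methyltransferase DNMT1, set anew by DNMT3A and DNMT3B, and lost when it is not copied or when TET enzymes oxidise it. In the rodent brain the suckling period is a time of glial growth, myelination and synapse formation. The assay used here cuts DNA at CCCGGG with SmaI, which cuts unmethylated sites to blunt ends, and then with XmaI, which opens the remaining methylated sites with an overhang. Adaptors are ligated to these overhangs, so that PCR amplifies fragments with a methylated site at either end. A loss is therefore less signal at P21 from fragments of that kind. The ratio gives no percentage of methylation, and a change in the mix of cell types of the tissue and a change within cells cannot be told apart.

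Both arrays were measured over a similar range. Of 90535 spots, 94.2% were well above background for P21 on array A and 93.8% on array B, against 95.3 and 93.9% for P0. The median spot signal was 899 and 883 for P21 and 859 and 834 for P0 on arrays A and B, in arbitrary units of processed signal. Over the 15076 well measured runs the ratios of the arrays correlated with r = 0.778, as a description over places in the genome that are not replicates. Their median log2 ratios were -0.02 (A) and -0.01 (B).

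The losses were shallow. Their mean log2 ratio had a median of -0.73 and ran from -1.74 to the threshold, and the middle 50% of them lay between -0.88 and -0.65. As folds, P0 signal was 1.5 to 3.34 times that at P21, with a median of 1.66. On array A the log2 ratio had a median of -0.70 and on array B of -0.80. The gains reached further, with a median of 1.02 and a highest value of 4.07. A 2-fold change or more was found in 62 losses, or 13.4% of them, and in 621 gains, or 52%. A size of at least 1.5 log2 units was reached by 8 losses and 287 gains. A 4-fold change was reached by 0 losses and 113 gains. By the rule P21 signal had to stay well above background, and the lowest P21 signal with that flag stood at 27.7 (A) and 29 (B). Without the brightness condition 676 autosomal runs met the size rule, with a median log2 ratio of -0.74. Of these, 215 had a probe that was not well above background. The part of this condition in the depth of the losses was not tested.

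The deepest loss lay on chromosome 18 at chr18:77760887-77761390, a run of 4 probes. Its signal was 75.5 and 134 at P21 on arrays A and B, against 362 and 314 at P0. Both P0 values thus exceeded both P21 values, and the distance was wider on array A. The log2 ratios were -2.26 (A) and -1.22 (B), a mean of -1.74 ± 0.73 (SD, n = 2). After normexp background correction and loess the mean was -0.78 and the run no longer met the rule, so the order of depth given here is that of the deposited ratios.

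Chromosome 10 held the next 2 runs in depth. At chr10:93950009-93950543, with 2 probes, signal was 67.3 and 91.4 at P21, against 264 and 247 at P0, and the log2 ratio was -1.70 ± 0.38. At chr10:30499838-30500482, with 4 probes, it was 38.4 and 76.2 at P21, against 165 and 188 at P0, and the log2 ratio was -1.70 ± 0.57. The P21 signal of the second of these on array A stood close to the lowest value flagged as above background there, and its mean was -0.56 with normexp and loess. At chr11:98626325-98626653, with 4 probes, signal was 197 and 152 at P21, against 558 and 528 at P0, for a log2 ratio of -1.65 ± 0.21.

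The run chr13:51539221-51539576 was as deep but far brighter. Signal there was 5762 and 7066 at P21, against 19392 and 19550 at P0, and the log2 ratios were -1.75 (A) and -1.47 (B). The run chr3:88715413-88715708 was of the same kind, with 6209 and 5679 at P21 against 15861 and 15569 at P0, and a log2 ratio of -1.40 ± 0.072. Both held 4 probes, and the spread between arrays was small beside the difference between ages. With normexp and loess the chromosome 13 run had a log2 ratio of -1.61 and the chromosome 3 run one of -1.42, and with normexp alone they had -1.34 and -1.16.

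The remaining 6 of the 12 deepest losses were dimmer. At chr15:98694133-98695522, with 4 probes over 1390 bp, signal was 564 and 567 at P21, against 1554 and 1737 at P0, and the log2 ratio was -1.54 ± 0.11. At chr16:10211837-10212392, with 4 probes, it was 126 and 134 at P21, against 351 and 422 at P0, for -1.56 ± 0.13. Its probes differed among themselves, with means from -2.07 to -0.75. The run chr8:98741410-98742276, also of 4 probes, had 144 and 103 at P21 and 311 and 333 at P0, and its log2 ratio of -1.41 ± 0.41 was deeper on array B.

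Runs of 2 probes made up 4 of the 12, all with another run or lone probe within 2000 bp. Besides the first chromosome 10 run these were chr2:155891482-155891679, with 84.8 and 84.8 at P21 against 298 and 219 at P0, and chr11:97892949-97893393, with 153 and 118 at P21 against 417 and 324 at P0. The shallowest of these, chr5:120843855-120844011, had 109 and 131 at P21 against 331 and 305 at P0. Their log2 ratios were -1.59 ± 0.31, -1.45 ± 0.0083 and -1.41 ± 0.27. In all 12 runs the signal at P0 was above that at P21 on either array, whichever pair was set side by side. Array A was the lower array in 6 of them and array B in 6. With normexp and loess, 4 of the 12 still met the whole rule, the runs on chromosomes 13, 3 and 15 and the run chr11:98626325-98626653.

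**Figure D1:**
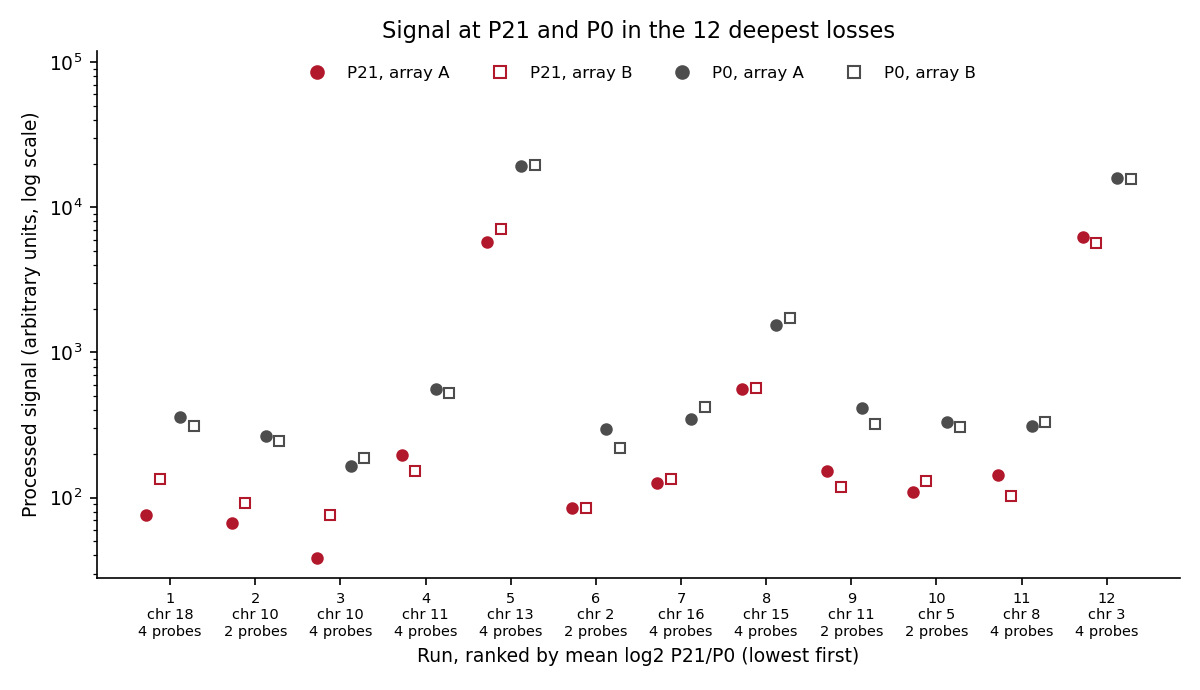
Processed signal (arbitrary units, log scale) at P21 (red) and P0 (grey) on array A (filled circles) and array B (open squares) for the 12 deepest losses, ordered by mean log2 P21/P0. P0 lies above P21 in each run, and the runs on chromosomes 13 and 3 stand at P0 signals of over 10000 while the other 10 stand below 2000.

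The arrays did not give the losses equal depth. Array B was the lower array in 284 losses and array A in 177. The 1.5-fold limit was met on both arrays separately by 255 losses, while in 129 array A fell short of it and in 77 array B did. With array A left out, 737 well measured runs met the limit on array B, and with array B left out 554 met it on array A. A 2-fold loss on both arrays was found in 29. The absolute difference between arrays had a median of 0.25 log2 units in the losses and 0.19 over all well measured runs. It was at least 0.5 in 85 losses and at least 1 in 9.

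The widest difference between arrays was at chr17:45901595-45901954, a run of 2 probes. Signal there was 144 and 528 at P21 on arrays A and B, against 727 and 665 at P0, so the P0 values lay close and the P21 values apart. Its log2 ratios were -2.34 (A) and -0.33 (B). A run on the same chromosome, chr17:45666570-45667096, differed the other way, with -0.42 (A) and -1.80 (B). So did chr5:124312512-124312871, with -0.49 and -1.76. In the last of these both ages differed between arrays, with 619 and 318 at P21 and 872 and 1078 at P0 on arrays A and B. At the other extreme the arrays gave nearly the same ratio at chr2:164600614-164601412 (-0.70 and -0.70), at chr11:117601088-117601372 (-0.70 and -0.70) and at chr12:55575883-55576226 (-0.63 and -0.64).

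**Figure D2:**
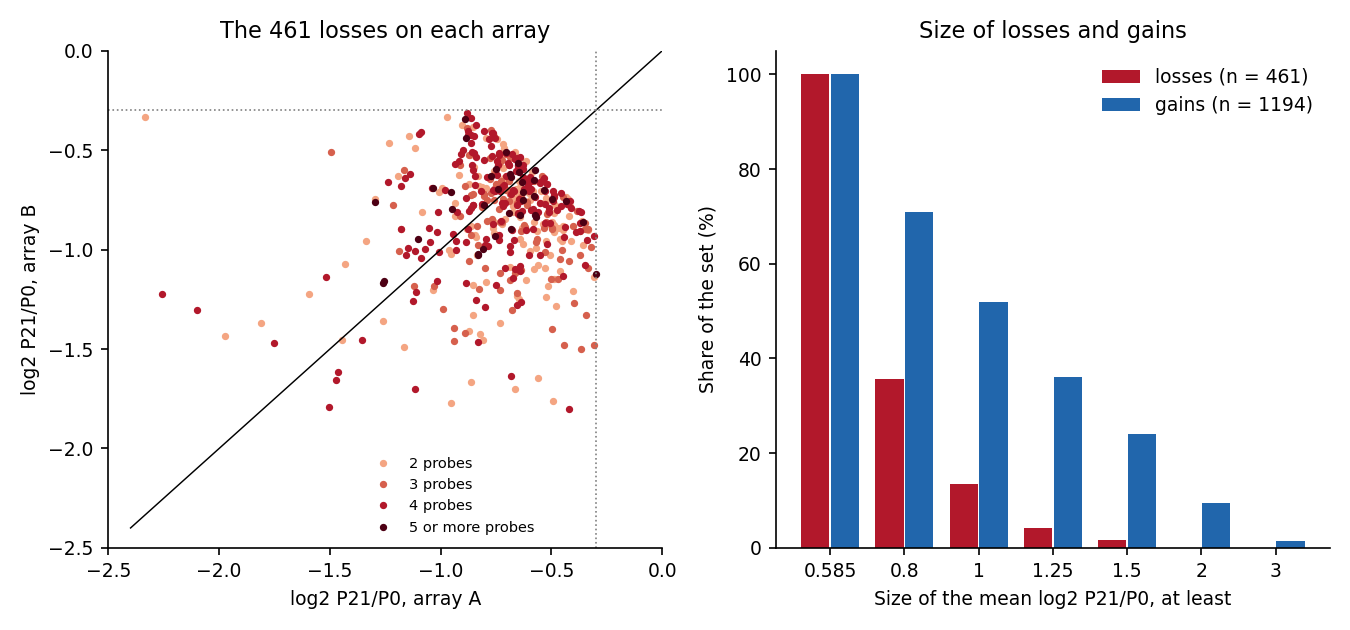
Left, the log2 P21/P0 ratio of each of the 461 losses on array A and array B, coloured by number of probes, with dotted lines at the limit of -0.3 for each array and a line of equality; 284 losses lie below that line and 177 above it. Right, the share of losses (red) and gains (blue) whose mean log2 ratio has at least the size on the x axis, for which 13.4% of losses and 52% of gains reach 1 log2 unit.

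The rule averaged over the probes of a run, which favours lower probes without requiring each to be lower. The share of lower probes is therefore a description with no weight of its own. The 461 losses held 1583 probes, and 1550 of them, or 97.9%, were lower at P21 on both arrays. All probes were lower on both arrays in 436 losses, or 94.6%. Probes of a run can report the same amplified fragment, so they are not independent of each other. Every probe's own mean met the 1.5-fold limit in 258 losses, or 56%. The range between the highest and lowest probe of a run had a median of 0.22 log2 units, and a middle 50% from 0.095 to 0.48. In 5 losses a probe had a mean of 0 or above. The widest range belonged to chr7:110405543-110406686, a run of 7 probes with log2 ratios of -0.50 and -0.74 on arrays A and B. Its probes ran from -2.15 to 0.07, so the loss there came from some of its probes.

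Among the 5 runs with the most probes, ties in probe number going to the lower mean, the range between probes differed. The longest by probe number was chr16:18146744-18148871, with 11 probes over 2128 bp. Its log2 ratios were -0.65 (A) and -0.57 (B), and its probes ran from -1.36 to 0.09. The run chr5:122906197-122909476 held 10 probes over 3280 bp, with -0.68 and -0.90, and all its probes were lower, from -1.09 to -0.52. Runs of 9 probes were chr7:26873226-26875277, with -0.76 and -0.93 on arrays A and B, and chr17:55902574-55904653, with -0.64 and -0.83. Probes of the chromosome 7 run ran from -1.80 to -0.05 and those of the chromosome 17 run from -1.32 to -0.05. The run chr5:137743744-137744819 was the deepest of the 13 losses with 8 probes. Signal there was 7976 and 8751 at P21, against 17151 and 16839 at P0, and the log2 ratios were -1.10 (A) and -0.94 (B). Its probes lay close together, from -1.2 to -0.87. Over all 38 losses of 5 or more probes the median log2 ratio was -0.70, and 4 reached a 2-fold change.

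Losses were rarer among runs with many probes. Of well measured runs with 2 probes 7.18% were losses (138 of 1922), and of those with 3 probes 4.84% (100 of 2066). The share was 2.30% for 4 probes (185 of 8038), 1.92% for 5 to 7 (21 of 1096), 1.05% for 8 (13 of 1243) and 0.563% for 9 or more (4 of 711). The gains ran the other way, from 4.47% at 2 probes and 8.99% at 4 probes to 11.3% at 9 or more. Runs of 2 probes made up 29.9% of the losses and 12.7% of all well measured runs. The rule averages over the probes of a run, so run size is not free of it, and the cause of these shares was not tested. The runs of 2 probes were also dimmer, with a median P0 signal of 657 against 2244 for those of 4, and over all of them the median log2 ratios were -0.08 (A) and -0.16 (B).

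The losses were dim at both ages. Their median signal was 326 and 325 at P21 on arrays A and B, and 586 and 579 at P0. Over all well measured runs the medians were 1468 and 1399 at P21, and 1363 and 1343 at P0. In 10 classes of equal size by P0 signal, the share of losses was 5.24% in the dimmest and 4.38% in the next, and 0.929% in class 9 and 1.59% in the brightest. In the dimmest class the median log2 ratios of all runs were -0.04 (A) and -0.14 (B). P21 signal is part of the ratio that chose the losses, and so is P0 signal, so brightness is no independent property of them.

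The 27 losses with a P0 signal of at least 10000 differed from the bulk in the arrays. Array A was the lower array in 23 of them, and their median log2 ratios were -0.85 (A) and -0.61 (B). The brightest, chr1:36478957-36479510, had signals of 27930 and 32514 at P21 against 50850 and 41129 at P0, with log2 ratios of -0.86 and -0.34. The run chr4:137110140-137110417 had -0.84 and -0.37, chr18:68063935-68064392 had -0.80 and -0.40, chr8:124900406-124901073 had -0.80 and -0.55, and chr4:55034530-55035119 had -0.85 and -0.43. All 5 were lower on array A, and all held 4 probes. Over all runs of the brightest class the median log2 ratios were -0.18 (A) and 0.16 (B), and in class 9 they were 0.03 and 0.08. In class 8 array A stood higher, with 0.07 against 0.02. The part of this difference between arrays in these losses was not tested.

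The medians of span and probe length differed little, but the share of losses differed between classes of both. The losses spanned a median of 524 bp from the first to the last probe, the gains 661 bp and all well measured runs 576 bp. The median of the mean probe length was 53.3 nt in losses, 51.5 nt in gains and 51.8 nt in all. Runs of the shortest probes, with a mean of at most 46 nt, held the smallest share of losses, 20 of 2483 or 0.805%, although their median P0 signal of 459 was low. In runs of probes over 58 nt the share was 3.92% (76 of 1941), and it was highest at 52 to 54 nt, with 4.19% (81 of 1934). Among runs of 4 probes the share was 1.39% for a span of up to 300 bp (17 of 1221). It was 4.37% for 1000 to 1250 bp (38 of 870) and 4.40% for 1250 to 2000 bp (11 of 250). The cause of these shares was not tested.

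Where another run lay close, losses were more frequent. Runs were separated at gaps over 500 bp, so neighbours begin there, and a neighbour may be a run or a lone probe of any brightness. Losses made up 4.87% of the runs whose nearest neighbour lay 500 to 750 bp away. The share was 8.45% for a neighbour 750 to 1000 bp away and 12.3% for a neighbour 1000 to 2000 bp away (39 of 317, exact 95% interval 8.90 to 16.4%). At 2000 to 5000 bp the share was 1.92%, and beyond 20000 bp it was 1.77%. The whole class at 1000 to 2000 bp stood low and dim, with median log2 ratios of -0.17 (A) and -0.23 (B) and a median P0 signal of 626. At 2000 to 5000 bp these medians were -0.01, 0.08 and 2365. The gains had their lowest share where the losses had their highest, 2.52% at 1000 to 2000 bp, against 11.5% at 2000 to 5000 bp. In all, 245 losses, or 53.1%, had such a neighbour within 2000 bp, against 239 gains (20.0%) and 4034 well measured runs (26.8%). Of the 138 losses with 2 probes, 129 had one. The exact intervals given here cover counting error only, and neighbouring runs are not independent samples.

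The layout of the probes is described here with a wider joining gap, and its part in this pattern was not tested. When probes were joined at gaps of up to 2000 bp, a setting chosen after seeing the data, 67.4% of the well measured blocks held exactly 4 probes. Many of the short runs were pieces of such blocks. Of the 245 losses that became part of a larger block, 136 became part of a block of 4 probes. The larger block was well measured in 170 of the 245 cases, and it was itself a loss in 79. In all, 287 of 13364 blocks met the loss rule and 1073 the gain rule.

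Among blocks of 4 probes, those with the widest extent held the largest share of losses. The share was 1.45% for an extent of up to 300 bp, 2.31% for 500 to 750 bp, 3.07% for 1000 to 1250 bp, 4.72% for 1250 to 1500 bp and 6.43% for 1500 to 2000 bp (27 of 420, exact 95% interval 4.28 to 9.22%). For gains the share peaked at 12.2% at 500 to 750 bp and was 1.19% at 1500 to 2000 bp. The whole class stood low: the median log2 ratio over all blocks of 1500 to 2000 bp was -0.20 (A) and -0.30 (B). In blocks of 500 to 750 bp it was 0.04 and 0.12. Brightness moved with extent too, with a median P0 signal of 320 in the widest class against 4272 at 500 to 750 bp. Among the dimmer blocks, those at or below the median P0 signal, the share of losses was 1.51% up to 300 bp, 4.29% for 500 to 750 bp and 6.72% for 1500 to 2000 bp. Among the brighter ones these classes had 1.37, 1.18 and 0%, the last with 18 blocks and an upper limit of 18.5%, and the highest share was 2.24% (11 of 490) for 1000 to 1250 bp. The probes stand on fragments whose ends are not known here, so extent is not fragment length, and the part of fragment length was not tested.

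**Figure D3:**
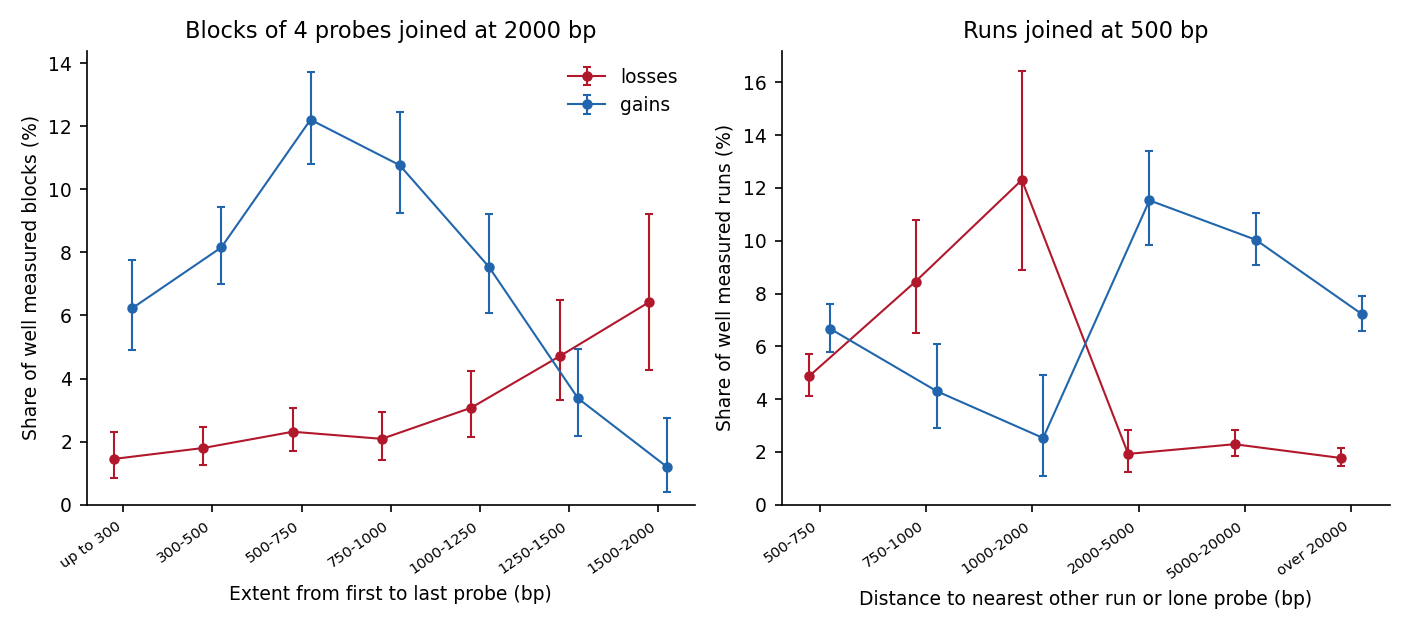
Left, the share of losses (red) and gains (blue) among well measured blocks of 4 probes joined at up to 2000 bp, by their extent in bp; right, the same among runs joined at up to 500 bp, by distance to the nearest other run or lone probe in bp. Bars are exact 95% intervals, and the share of losses reaches 6.43% in the widest blocks and 12.3% where the nearest run is 1000 to 2000 bp away.

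Neighbours of the losses were lower as well, though the rule had not chosen them. Counted from each loss, the next run or lone probe on either side lay within 2000 bp 256 times, and it was a loss in 28 of these cases and a gain in 0. From all well measured runs, a neighbour lay as near 4284 times, and it was a loss in 111 cases and a gain in 142. Counted once each, 227 neighbours of losses were neither a loss nor a gain, 94 of them lone probes. They had median log2 ratios of -0.22 (A) and -0.37 (B), and 143 of them, or 63.0%, were lower on both arrays. The 154 of them that were well above background at every probe had medians of -0.27 and -0.41. The rule never counts a lone probe as a loss, and 24 well measured lone probes next to a loss met its size limits. These medians therefore include probes as low as the losses. Counted from each gain, 249 neighbours lay as near and 70 of these were gains and 0 losses, while 178 others, counted once each, had medians of 0.39 and 0.23. Neighbours at this distance stood low, with medians of -0.09 and -0.17 over 3891 neighbours of well measured runs in general. At 1000 to 2000 bp the neighbours of losses had medians of -0.15 and -0.40 (36 neighbours), against -0.14 and -0.25 beside any run (304 neighbours), so on array A they hardly stood apart there. From 2000 to 5000 bp the medians beside losses were -0.07 and -0.05 (42 neighbours), and from 5000 to 10000 bp -0.01 and -0.01 (73 neighbours). Whether neighbours share a restriction fragment was not tested, and the same arrays gave both values.

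**Figure D4:**
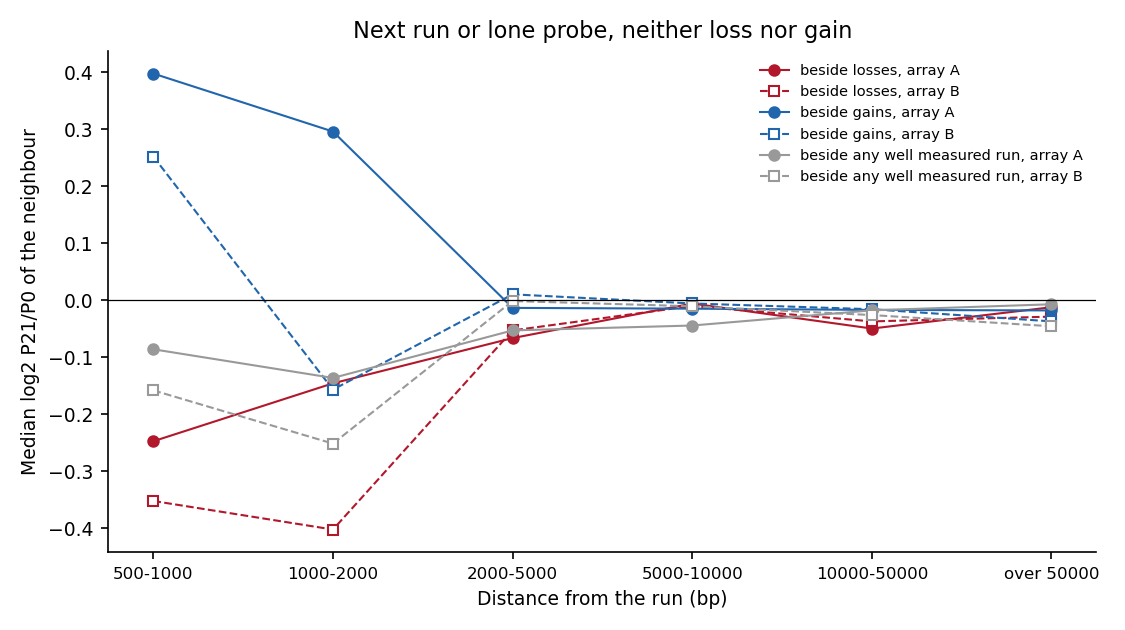
Median log2 P21/P0 of the next run or lone probe, of any brightness, that was itself neither a loss nor a gain, on array A (filled circles) and array B (open squares), by distance in bp from losses (red), gains (blue) and any well measured run (grey). A lone probe counts as neither by the rule, whatever its ratio. Beside losses the medians are -0.25 and -0.35 at 500 to 1000 bp and lie between -0.07 and -0.01 beyond 2000 bp, and the point beside gains at 1000 to 2000 bp rests on 8 neighbours.

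The share of losses with another loss near them depended on the distance. Of the 461, 96 or 20.8% had another loss within 100 kb, in 39 pairs and 6 triplets. Of the gains 412, or 34.5%, had another gain that near in a set with 1194 members. Within 10 kb there were 30 losses in 15 pairs, against 138 gains. Within 1 Mb there were 273 losses, or 59.2%, in 90 clusters of up to 9, against 977 gains (81.8%). The gains are the larger set, and no share was computed for equally many well measured runs. Whether losses lie closer together than the density of runs would give was therefore not tested.

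The closest pair lay on chromosome 7, with 508 bp between chr7:144745489-144745779 and chr7:144746287-144746696. Log2 ratios were -0.50 and -0.86 on arrays A and B in the proximal run and -0.76 and -0.86 in the distal one. A pair on chromosome 8 was 518 bp apart, with -1.09 and -0.81 at chr8:126835889-126836052 and -0.84 and -1.02 at chr8:126836570-126836796. The next pair lay 561 bp apart on chromosome 7, with -0.67 and -0.55 at chr7:15717190-15717604 and -0.92 and -0.63 at chr7:15718165-15718564. All 6 runs held 2 probes.

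The 6 triplets lay on chromosomes 2, 5, 10 and 11. In the stretch from 156719316 to 156768738 on chromosome 2, 49423 bp long, all 3 well measured runs were losses. Signal at chr2:156719316-156720548 was 2114 and 2053 at P21, against 4371 and 4000 at P0, for log2 ratios of -1.05 and -0.96. The middle run, chr2:156744015-156744097, had -0.57 and -0.95, and the distal run, chr2:156768441-156768738, had -1.17 and -1.49. This was the one triplet without any other well measured run between its losses. All its runs met the rule with loess and with normexp and loess, and the middle one did not with normexp alone.

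On chromosome 11 the triplet reached from 98534133 to 98626653 and ended in the loss of -1.65 described above. Its other losses were chr11:98534133-98534586, with -0.71 and -0.63, and chr11:98585410-98586615, with -0.82 and -0.77. The 3 other well measured runs between them were not lower, with means from 0.04 to 0.37. On chromosome 5 the triplet from 120843855 to 120908671 likewise began with one of the 12 deepest losses. It went on with chr5:120894513-120895058, at -0.78 and -0.65, and chr5:120908113-120908671, at -0.62 and -0.88. Its 2 other runs were at -0.44 and -0.17.

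The triplets on chromosome 10 and in the distal part of chromosome 2 also held a gain. On chromosome 10, from 79268273 to 79337787, 3 of 8 well measured runs were losses and 1 was a gain at 1.78. The loss chr10:79268273-79268923 held 8 probes and was bright, with 12153 and 12557 at P21 against 19015 and 19133 at P0. Its log2 ratios were -0.65 and -0.61, while those of chr10:79313270-79313860 were -0.32 and -0.99 and those of chr10:79336969-79337787 were -0.50 and -0.90. On chromosome 2, from 172508009 to 172627354, 3 of 6 runs were losses and 1 was a gain at 1.0. The losses were chr2:172508009-172508394 (-0.64 and -0.65), chr2:172602374-172603017 (-0.65 and -0.57) and chr2:172626883-172627354 (-0.68 and -1.63). On chromosome 5, from 139285558 to 139404922, the losses were chr5:139285558-139286825 (-0.63 and -0.57), chr5:139332841-139333098 (-0.42 and -0.75) and chr5:139403967-139404922 (-0.86 and -0.57). The fourth run of that stretch was at -0.24. The stretches on chromosome 10, in distal chromosome 2 and in distal chromosome 5 rest on a run that did not meet the rule with loess: chr10:79313270-79313860 (-0.59, short of the limit for a single array), chr2:172602374-172603017 (-0.58) and chr5:139332841-139333098 (-0.55). With outlier-flagged spots kept, the chromosome 10 run was at -0.56 and the chromosome 5 run at -0.52, also short of the rule. Of the 18 runs in triplets, 8 met the rule with normexp and loess.

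In windows of 1 Mb, 341 of 1968 held a loss, 78 held 2 or more and 10 held 4 or more. The most was 5, reached between 24 and 25 Mb of chromosome 17, with 21 well measured runs and 0 gains, and between 172 and 173 Mb of chromosome 2, with 35 runs and 2 gains. The chromosome 17 window was singled out after its values had been seen. Its deepest loss was chr17:24662462-24663059, a run of 7 probes with signals of 4035 and 3980 at P21 against 9653 and 8889 at P0, and log2 ratios of -1.26 and -1.16. The brightest, chr17:24199863-24200438, had 9474 and 9488 at P21 against 17022 and 15149 at P0, and -0.85 and -0.67. The others were chr17:24252294-24252453 (-0.65 and -1.25), chr17:24361914-24363475 (-0.88 and -0.44) and chr17:24999629-25000103 (-1.23 and -0.46). The share of losses was higher in densely probed windows, at 2.34% where a window held up to 7 runs and 4.42% where it held over 29.

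All 19 autosomes held losses. The share was 4.38% on chromosome 10 (34 of 776, exact 95% interval 3.05 to 6.07%) and 4.07% on chromosome 5 (51 of 1253, 3.05 to 5.32%). It was 1.18% on chromosome 3 (7 of 595, 0.474 to 2.41%) and 1.19% on chromosome 14 (6 of 506, 0.436 to 2.56%). The intervals of chromosomes 3 and 14 lay below the share of 3.06% over all autosomes, and those of the other 17 included it. These are 19 shares set side by side, without a test, and the extremes were picked from them. Chromosome 10 also had a low share of gains, 6.06%, and chromosomes 3 and 14 had 6.89 and 7.71%.

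**Figure D5:**
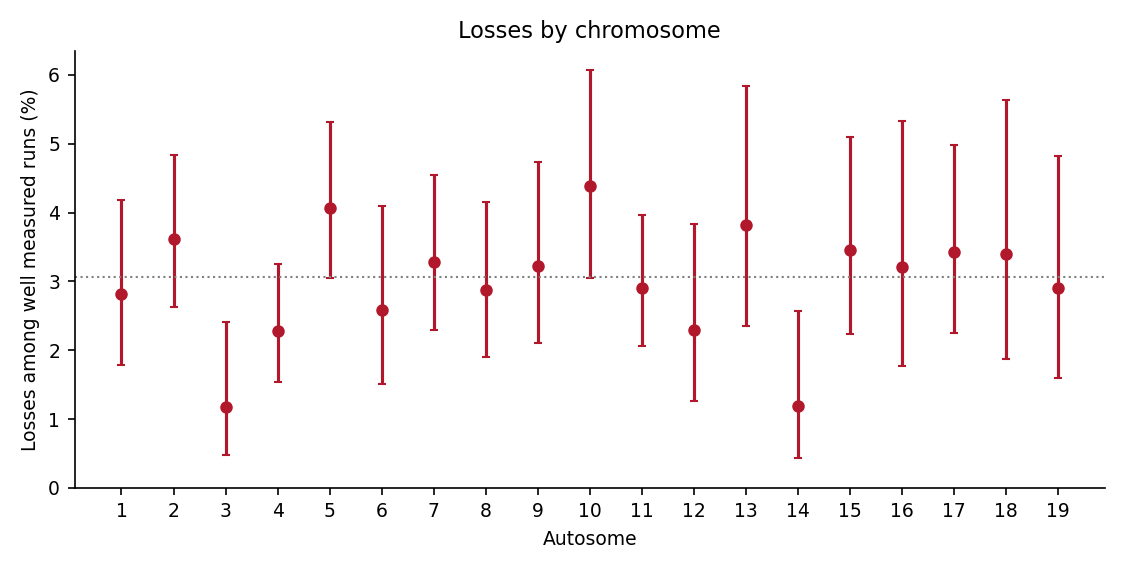
Share of well measured runs that were losses on each of the 19 autosomes, in percent, with exact 95% intervals as bars and the share of 3.06% over all autosomes as a dotted line. Chromosomes 10 and 5 lie highest, at 4.38 and 4.07%, and chromosomes 3 and 14 lowest, at 1.18 and 1.19%.

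Along the chromosomes the losses were placed much as all well measured runs were. With each chromosome's probed extent cut into 10 parts of equal length, the share of losses ran from 2.04% in part 6 to 3.60% in part 9. The outer parts at both ends together held 113 losses, or 24.5% (exact 95% interval 20.7 to 28.7%), against 24.1% of gains and 23.9% of all well measured runs. Within the outer 5% at both ends the shares were 9.98% of losses, 11.6% of gains and 12.3% of all runs, where the interval for losses of 7.40 to 13.1% holds the share of all runs.

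The 3 runs named on each side of the threshold lay close in mean ratio across it, but differed in probe number and brightness. Just inside lay chr19:46366392-46366831, with log2 ratios of -0.61 and -0.56 on arrays A and B, chr15:97426734-97426982, with -0.44 and -0.74, and chr5:139332841-139333098, with -0.42 and -0.75, all of 2 probes. Just outside lay chr11:60001703-60003322, a run of 8 probes with -0.70 and -0.47, chr4:133784506-133784674, with -0.40 and -0.77, and chr15:74414593-74415346, with -0.60 and -0.57. The last 2 held 4 and 3 probes. P0 signals were 1154, 113 and 398 just inside and 13446, 8155 and 5030 just outside. With loess the 3 inside had means of -0.57, -0.51 and -0.55 and did not meet the rule. The 3 outside then had means of -0.62, -0.63 and -0.61, past the limit of the mean.

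Fewer losses met the rule after other corrections of background and dye. The rule was met by 412 runs with loess, by 258 with normexp and no loess, and by 102 with both, against 1204, 976 and 843 gains. Of the 461, 45 or 9.76% met it in all of these 3 settings. The median log2 ratio of the 461 was -0.61 with normexp alone and -0.40 with normexp and loess. Losses further past the limit meet the rule in all settings more easily, so depth is not free of this split. The 45 had median signals of 1210 at P21 and 2466 at P0 and a median log2 ratio of -1.03. The 416 others had medians of 286 at P21 and 493 at P0 and a log2 ratio of -0.71. A run of 2 probes was found 7 times among the 45 and 131 times among the 416, and another run or lone probe lay within 2000 bp of 16 (35.6%) and 229 (55.0%). An offset of 50 draws dim ratios towards 0 by construction, but with normexp alone bright losses moved too. The brightest, chr1:36478957-36479510, went from -0.60 to -0.34, and was at -0.57 with normexp and loess. The bright chr13:51539221-51539576 went from -1.61 to -1.34, and was at -1.61 with both. Of the 5 brightest at P0, 0 met the rule with normexp alone and 4 with normexp and loess. Dim losses differed with normexp alone: chr7:15717190-15717604 went from -0.61 to -0.60, and the deepest loss, on chromosome 18, from -1.74 to -1.18. The split and brightness cannot be told apart.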

How the data were processed

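Per the file headers the scans were read with Agilent Feature Extraction 10.5.1.1. The submitters' processing notes give version 9.1.3.1. Each deposited log10 ratio is that of red to green signal once background had been subtracted, spatial trends removed and the dyes scaled linearly, per the file headers. The authors' processed intensity is on a linear scale, and the deposited spot and background intensity are medians. The deposited p-values of single log ratios, from the scanner software's error model per the file headers, were not used. The deposited flags mark spots above background, saturated (0 spots) or outlying (30 on array A and 775 on array B, left out).

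The members, lists and classes were chosen with earlier results of these data known. Log10 ratios were turned to log2 of P21 over P0, uncentred because both medians were 0, and averaged over probes. Signals of a run are geometric means. Loess and normexp (offset 50) were run in limma 3.58.1 and R 4.3.3 (with version 1.17.8 of data.table), and the rest in Python 3.11.15, pandas 2.3.3, numpy 2.4.6, scipy 1.17.1 and matplotlib 3.10.9. The code of the rule was checked on simulated runs with planted changes well past its limits, equal signals and every probe above background. That check does not bear on shallow or dim losses. Named runs are the 12 deepest losses, the 5 with most probes, the 5 brightest at P0, the 3 with the largest and the 3 with the smallest difference between arrays, all triplets within 100 kb, the 3 closest pairs, and the 3 runs on each side of the threshold. Precision is limited by the number of arrays, and SD values rest on n = 2. Alternatives covered background, dye, outliers, summary over probes, gaps, thresholds, brightness, chromosomes and each array alone. No sequence was printed, because no genome of build mm8 was used here.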

Additional observations from a re-analysis of the deposited data

Results flagged for a closer look

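Some data outside the rule also met its size condition. Of 2056 well measured autosomal probes that stood alone, and so formed no run, 201 or 9.78% were lower at P21 on both arrays by the same limits, and 83 or 4.04% were higher. Of the 201, 197 had a run or another lone probe within 2000 bp and 24 lay next to a loss at that distance. Their median log2 ratio was -0.71 (A) and -0.87 (B).

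Of 320 well measured runs on the X chromosome, 6 or 1.88% were lower at P21 and 3 or 0.938% were higher. The deepest of the 6 was chrX:7048964-7049227, with signals of 604 and 424 at P21 against 1097 and 987 at P0 and log2 ratios of -0.86 and -1.22. The run with the most probes was chrX:11234125-11236644, with 15 probes and log2 ratios of -0.54 and -0.67. These were flagged because they lie in probes or a chromosome that the rule left aside.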

How the results depend on the processing

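Under the alternatives, losses stayed fewer than gains in every setting run. With loess on the processed signals 412 runs met the loss rule, 398 of them among the 461. The count was 258 with normexp alone (218 shared) and 102 with normexp and loess (98 shared), and the median log2 ratio of the 461 was -0.61 and -0.40 in these, against -0.71 with loess. For the normexp settings the offset of 50 draws dim ratios towards 0. With normexp alone the brightest losses moved towards 0 too, while dim losses differed, and chr7:15717190-15717604 went only from -0.61 to -0.60. A mean of at most -1 left 62 losses with a median of -1.15 and 621 gains, and a mean of at most -0.5 gave 662 with a median of -0.66. Among settings chosen after seeing the data, joining at 2000 bp gave 287 losses, runs of 4 probes alone 185 losses and 723 gains, and runs with no other run or probe within 2000 bp 216 losses. Planned gaps of 250 and 1000 bp gave 499 and 315. Each array alone gave 554 to 737 losses: 737 without replicate A (384 shared) and 554 without replicate B (332 shared), with 1273 to 1390 gains and medians of the 461 from -0.80 to -0.70. Losses with another within reach were 30 at 10 kb, 96 at 100 kb and 273 at 1 Mb. The median of the neighbours within 2000 bp, -0.28, ran from -0.37 to -0.22 with each array alone and was -0.34 over well measured neighbours, a setting added after seeing the data. The outer 5% at both ends held 9.98% of losses, by construction fewer than the outer 10%. Of 55 named runs the ratio of 7 moved by more than 1 SD with loess, 38 with normexp and loess, 34 with normexp alone and 4 with the median over probes, and 0 changed sign. That SD is each run's own over the arrays, so these counts depend on how well the arrays matched. With normexp and loess chr17:45666570-45667096 went from -1.11 to -0.26 without counting as moved. With loess chr2:172508009-172508394 counted, from -0.65 to -0.64. The runs were chosen with both arrays at most -0.3, so no sign could change with each array alone. No paired analysis was possible because P21 and P0 were already paired within each array as a ratio, and each replicate is 1 array.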
